A study of Mus musculus with 18 samples.

Results

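The 10 genes described here are markers of the integrated stress response and of the unfolded protein response. They were chosen by symbol, with earlier results of these data known, from the 24485 genes listed in every library, and all 10 were found. Atf4, Ddit3, Chac1, Trib3, Asns and Atf5 belong to the integrated stress response, and Xbp1, Hspa5, Dnajb9 and Herpud1 to the response of the endoplasmic reticulum (ER) to unfolded proteins. Their RNA was read from 18 RNA-seq libraries of bone marrow-derived macrophages (BMDMs), macrophages grown for 6 days from bone marrow in medium conditioned by L929 cells.

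All cells came from 12-week-old male Il10-/- mice on the C57BL/6J background, so every group, controls included, lacked a working gene for the anti-inflammatory cytokine IL-10. The 6 groups held 3 libraries each, and the replicate numbers 1, 2 and 3 were taken to name the 3 mice. Unstimulated cells received no agent, and the JQ1 and IL-10 groups received (+)-JQ1 at 500 nM or IL-10 at 10 ng/mL for 12 hours and then buffer for 4 hours. The groups named LPS, LPS + JQ1 and LPS + IL-10 had vehicle or the same pretreatments followed by lipopolysaccharide (LPS), a bacterial cell wall component, at 50 ng/mL for 4 hours. JQ1 blocks the bromodomains through which the BET proteins bind acetylated histones. The comparisons ask how BET inhibition or IL-10 changes the macrophage response to LPS, read here in the stress response genes. The labels call the control cells untreated, whereas vehicle is named as the control of the pretreatment in the methods. If unstimulated cells had no vehicle, comparisons and interactions that use them cannot tell vehicle from agent.

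In the integrated stress response, kinases that sense amino acid shortage, double-stranded RNA, heme loss or ER stress phosphorylate the translation factor eIF2alpha. Translation then falls in general while that of the transcription factor ATF4 rises, and ATF4 with its partner CHOP, the product of Ddit3, switches on genes for amino acid supply, redox balance and cell death. In the ER, the sensors PERK, IRE1 and ATF6 respond to unfolded proteins, IRE1 splices the mRNA of Xbp1, and the factors made raise chaperones and degradation genes. Macrophages use the spliced form of XBP1 in cytokine production after Toll-like receptor signals. Gene counts do not tell spliced from unspliced Xbp1, nor phosphorylated from unphosphorylated eIF2alpha, so neither was measured here.

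The promoters of 5 of the 10 genes held a match to a binding element of these pathways, and the stretches around the matches are printed because they carry the elements by which ATF4 and the ER stress factors are known to act. The sequences are RefSeq's, build GRCm38.p6, from windows of 250 bases before to 50 after each start, and all 10 genes matched the table. Each is written 5′ to 3′ on the strand of the gene, with the matching bases in capitals. Chac1 is at chr2:119351022-119351101 on the plus strand, Asns at chr6:7693210-7693289 on the minus strand, Trib3 at chr2:152344029-152344054 on the minus strand, Hspa5 at chr2:34771990-34772089 on the plus strand and Herpud1 at chr8:94386309-94386428 on the plus strand.
Chac1: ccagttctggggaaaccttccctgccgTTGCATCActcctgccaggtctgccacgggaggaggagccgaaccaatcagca
Asns: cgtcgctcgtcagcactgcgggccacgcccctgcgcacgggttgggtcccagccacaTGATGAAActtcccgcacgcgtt
Trib3: gctcaggtTTACATCAgccgggcggg
Hspa5: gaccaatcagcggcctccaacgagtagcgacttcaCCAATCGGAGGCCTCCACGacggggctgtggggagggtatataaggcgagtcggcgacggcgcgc
Herpud1: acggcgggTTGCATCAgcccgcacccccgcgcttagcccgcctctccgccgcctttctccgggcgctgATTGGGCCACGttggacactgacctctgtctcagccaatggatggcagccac

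Both strands were searched for 4 elements. The composite site of ATF4 and CHOP, TGATGNAA, was found in 4 of the 10 genes against 3.97% of 32851 promoters of the same length. It began 193 bases before the start in Chac1, 23 before in Asns and 112 before in Herpud1, and it lay 14 to 21 bases after the start, within the transcribed part, in Trib3. The ER stress response element, CCAAT, 9 bases of any kind and then CCACG, was found in Hspa5 alone of the 10, beginning 65 bases before the start, against 0.119% of promoters. Its second form, ATTGG, 1 base of any kind and then CCACG, was found in Herpud1, beginning 52 bases before the start, against 0.0365% of promoters, and it did not overlap the composite site of that gene. TGACGTGG, the unfolded protein response element, was found in none of the 10 and in 0.676% of promoters. Atf4, Ddit3, Atf5, Xbp1 and Dnajb9 had no match to any of the 4 in these windows. A match is a description of letters and was not tested as a site.

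The totals of expected counts ran from 6781952 to 28289498 per library. LPS changed the make-up of the libraries, and the median-of-ratios factor per 1000000 counts of the library was 0.0461 to 0.0474 in the LPS group, 0.0602 to 0.0615 in LPS + JQ1 and 0.0872 to 0.0908 in unstimulated cells. The median log2 fold change of genes with a mean count of at least 10 for LPS depended on the scaling. Median-of-ratios factors gave -0.03, TMM factors -0.11, total-count scaling -0.96 and log2(TPM + 1) -0.70, and for LPS + JQ1 against LPS the same scalings gave -0.09, 0.03, 0.29 and 0.18. Normalised counts below are counts divided by median-of-ratios factors, and directions that turn under another scaling are named. Replicate 3 of LPS stood apart from replicates 1 and 2 (chi-square per degree of freedom 26.1 and 30.5), as did replicate 3 of LPS + IL-10 (30.02 and 28.85), against 4.14 to 11.2 for all other pairs of replicates. The 8 macrophage markers found (Cd68, Lyz2 and others) summed to 14317 to 29066 TPM, with 23886 ± 900 in unstimulated cells and 15228 ± 793 with LPS. Marker sums reached at most 13.3 TPM for neutrophils, 5.34 for B cells, 8.72 for T cells and 10.3 for fibroblasts, and Ly6g was at 0 in all 18 libraries. In LPS + JQ1 the macrophage sum was 20812 ± 1559. The B cell sum was 4.17 ± 1.60 TPM in unstimulated cells, 0.303 ± 0.170 with JQ1, 1.30 ± 0.356 with LPS and 0.353 ± 0.297 with LPS + JQ1. The T cell sum in the same order of groups was 7.63 ± 0.765, 3.52 ± 0.433, 3.38 ± 0.488 and 2.06 ± 0.393. It was nearly all Cd4, at 1.72 to 8.53 TPM per library, whereas Cd3e, Cd3d and Cd3g reached at most 0.09, 0.25 and 0.14 TPM. The part of these markers in the results was not tested.

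On the length-scaled level (TPM), Hspa5 was the most abundant of the 10, with group means of 268 to 788 TPM. Atf4 followed with 113 to 308 TPM and Xbp1 with 55.7 to 104 TPM. Herpud1 (16.8 to 63.1 TPM), Ddit3 (12.2 to 55.8), Atf5 (23.96 to 33.3), Asns (7.58 to 25.4) and Dnajb9 (6.19 to 24.04) had overlapping ranges. Trib3 (0.187 to 3.98 TPM) and Chac1 (0.15 to 3.72 TPM) were the lowest, and each had its highest mean in LPS + JQ1.

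**Figure D1:**
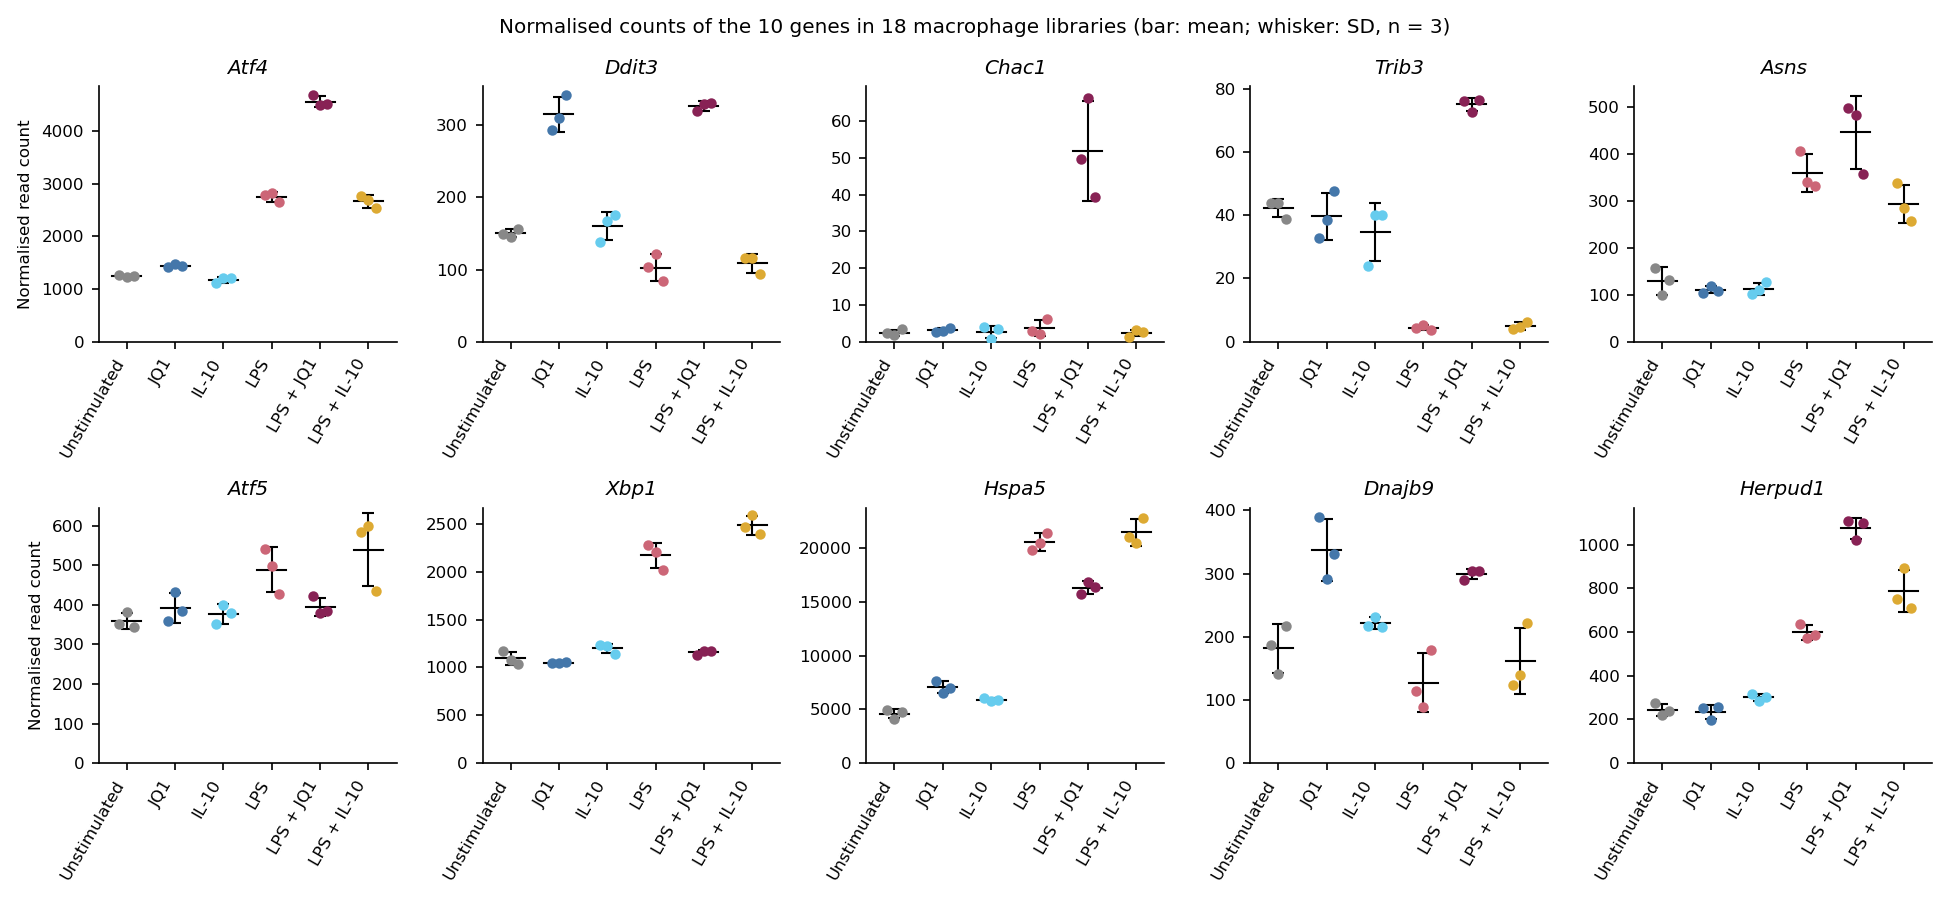
Normalised read counts of the 10 genes, one panel per gene with its own axis from 0, in the 6 groups. Points are libraries, horizontal bars means and whiskers SD (n = 3). Chac1 rises above 6.14 counts only in LPS + JQ1, and Trib3 is lowest in LPS and LPS + IL-10.

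LPS raised 6 of the 10 genes and lowered 3. Of all 14965 genes tested, 64.5% were called changed (31.6% higher and 32.9% lower), so the 9 called are to be read against a wide response. The largest rise was in Hspa5, the ER chaperone BiP, and the largest fall in Trib3, a pseudokinase that ATF4 and CHOP induce and that holds them back. The median log2 fold change of the 10 was 0.73, against -0.07 over all genes tested. With total-count scaling 4 of the 10 were higher and 4 lower, where 2223 genes were called higher and 8858 lower. In bulk RNA, fewer cells of a type and less RNA per cell cannot be told apart.

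JQ1 given before LPS left 6 of the 10 genes higher than LPS alone and 3 lower, where 57.3% of 14326 genes were called (24.4% higher and 32.9% lower). Genes on the ATF4 and CHOP branch (Atf4, Ddit3, Chac1, Trib3) and the ER genes Dnajb9 and Herpud1 were higher, whereas Xbp1, Hspa5 and Atf5 were lower. Asns, also an ATF4 target, gave 0.31 and did not pass (adjusted p 0.0826). The median log2 fold change of the 10 was 0.79, against -0.11 over all genes tested. With total-count scaling 7 of the 10 were higher and 1 lower, where 5524 genes were called higher and 2994 lower. The fall of Atf5 did not hold under the other scalings, and that of Hspa5 held only with TMM factors among them, as given below. The comparisons of LPS with unstimulated cells and of LPS + JQ1 with LPS share the LPS libraries.

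Without LPS, JQ1 raised 4 of the 10 genes and lowered none, where 45.7% of 13686 genes were called (21.9% higher and 23.7% lower). With total-count scaling the numbers were 3 higher and 2 lower, where 1670 genes were called higher and 4568 lower. IL-10 raised 1 of the 10 without LPS, Hspa5, where 2.81% of 12727 genes were called (1.8% higher and 1.01% lower). During LPS stimulation IL-10 raised 2, Xbp1 and Herpud1, where 17.2% of 11448 genes were called (8.38% higher and 8.81% lower). Set against LPS + IL-10, LPS + JQ1 differed in all 10 genes, 7 higher and 3 lower with JQ1, where 55.3% of 14326 genes were called (23.8% higher and 31.6% lower). Of these, Hspa5 did not pass with total-count scaling (-0.11, adjusted p 0.270) or on log2(TPM + 1) (-0.20, adjusted p 0.130), and Atf5 did not pass with total-count scaling (adjusted p 0.265) or without replicate 2 (adjusted p 0.112).

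**Figure D2:**
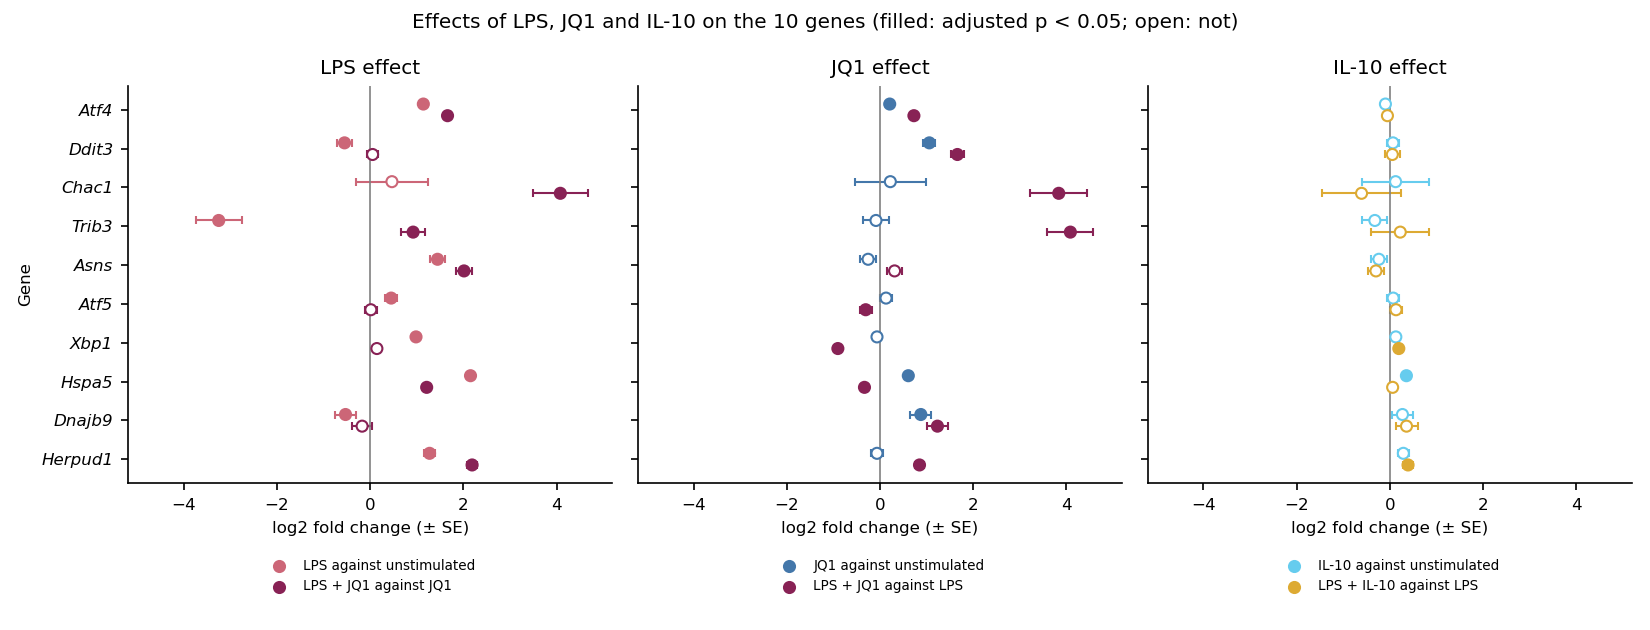
Fitted log2 fold changes (± SE) of the 10 genes for LPS without and with JQ1, for JQ1 without and with LPS, and for IL-10 without and with LPS, from the DESeq2 Wald test on 3 libraries a group. Filled points have an adjusted p under 0.05. With LPS present, JQ1 is followed by large positive values for Chac1 (3.84) and Trib3 (4.09) and a negative value for Xbp1 (-0.90).

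Atf4 (mm9 chromosome 15, 80085614 to 80087970, plus strand) encodes the central transcription factor of the integrated stress response, which is set mainly by translation but also by its mRNA level. Unstimulated libraries 1, 2 and 3 had 1259, 1235 and 1247 normalised counts, JQ1 libraries 1417, 1472 and 1441 and IL-10 libraries 1112, 1206 and 1205. LPS-stimulated libraries had 2782, 2830.0 and 2645, those pretreated with JQ1 4678, 4502 and 4505 and those pretreated with IL-10 2774, 2688 and 2529.9. The LPS + JQ1 libraries were above all others, and every library with LPS was above every library without it.

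LPS raised Atf4 2.21-fold (log2 fold change 1.14, SE 0.06, adjusted p 6.00e-94), and it was a further 1.66-fold higher with JQ1 before LPS (0.73, SE 0.05, adjusted p 6.90e-44), in 3 of 3 pairs. The relative size of these steps depended on scaling, since LPS gave 0.21 (adjusted p 6.34e-05) with total-count scaling and 0.37 (adjusted p 3.76e-05) on log2(TPM + 1), and LPS + JQ1 against LPS gave 1.10 (adjusted p 7.80e-117) and 1.03 (adjusted p 4.38e-10). The mean level was 116 ± 5.73 TPM in unstimulated cells, 151 ± 10.5 TPM with LPS and 308 ± 12.2 TPM with LPS + JQ1. JQ1 alone raised it by 0.21 (SE 0.06, adjusted p 0.000739), but this small change was absent on log2(TPM + 1), at -0.0091 (adjusted p 0.920), and with total-count scaling, at 0.03 (adjusted p 0.693), and did not pass without replicate 2 (adjusted p 0.0957). The JQ1 effect was larger with LPS than without it, with an interaction of 0.52 (SE 0.08, adjusted p 1.38e-10), or 1.07 (adjusted p 1.86e-49) with total-count scaling. The values for IL-10 were -0.09 without LPS and -0.05 with it, and neither passed.

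Ddit3 (chromosome 10, 126727830 to 126733344, plus strand) encodes CHOP, the factor tied to cell death after lasting ER stress. Its normalised counts, given for replicates 1, 2 and 3 in turn, stood at 149.7, 145 and 156 unstimulated, at 293, 311 and 342 under JQ1 and at 138, 168 and 175 under IL-10. LPS-stimulated libraries had 103, 121 and 83.5, those pretreated with JQ1 319, 329.6 and 331 and those pretreated with IL-10 116, 116 and 93.8. Both groups with JQ1 lay above all others and overlapped each other, and the LPS libraries lay below the unstimulated ones.

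LPS lowered Ddit3 (log2 fold change -0.55, SE 0.15, adjusted p 0.000678), although without replicate 3 this did not pass (adjusted p 0.0876). With total-count scaling the fall was -1.48 (adjusted p 1.15e-21) and on log2(TPM + 1) -1.26 (adjusted p 2.70e-09). JQ1 raised it 2.08-fold without LPS (1.06, SE 0.13, adjusted p 1.90e-14) and 3.17-fold with LPS (1.66, SE 0.15, adjusted p 1.65e-28), each in 3 of 3 pairs. The interaction was 0.60 (SE 0.20, adjusted p 0.00748), but it did not pass without replicate 1 (adjusted p 0.140) or without replicate 3 (adjusted p 0.144), and it was 1.16 (adjusted p 2.60e-08) with total-count scaling. LPS + JQ1 against JQ1 gave 0.05 (SE 0.12, adjusted p 0.746), but -0.32 (adjusted p 0.0157) with total-count scaling. The annotated gene overlaps Mars, the methionyl-tRNA synthetase gene, on the opposite strand, whose mean normalised count was 424 ± 24.9 in unstimulated cells, 291 ± 46.6 with LPS and 489 ± 68.3 with LPS + JQ1. The counting did not use strand, and all Ddit3 counts were whole.

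Chac1 (chromosome 2, 119176965 to 119180117, plus strand) encodes an enzyme that breaks down glutathione and is induced through ATF4 and CHOP. It had 1 to 10 reads in each of the 15 libraries outside LPS + JQ1, and 45, 63 and 32 reads in that group. The normalised counts of LPS + JQ1 were 49.7, 66.3 and 39.4, against 2.83, 2.07 and 6.14 with LPS and 2.59, 2.96 and 3.66 with JQ1. In unstimulated cells they were 2.31, 1.69 and 3.35. Only the group that received both JQ1 and LPS was high, and no library of it overlapped any other.

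From the summed reads, Chac1 was 14.5-fold higher in LPS + JQ1 than in LPS (140 against 9 reads, 95% interval 7.43 to 32.4), and 17.1-fold higher than in JQ1 (140 against 10 reads, 9.04 to 36.5). These exact binomial intervals, from reads summed over the 3 libraries of each group, hold counting error alone and leave out the spread between libraries. PCR copies of a molecule could not be told from separate molecules. The DESeq2 log2 fold changes were 3.84 (SE 0.61, adjusted p 1.41e-09) and 4.08 (SE 0.59, adjusted p 2.39e-11), and the interaction was 3.61 (SE 0.97, adjusted p 0.000847). Without replicate 2 DESeq2 gave the interaction no adjusted p. LPS alone and JQ1 alone gave differences that were not detectable at this depth (adjusted p 0.627 and 0.844).

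Trib3 (chromosome 2, 152163158 to 152169768, minus strand) encodes a pseudokinase that feeds back on ATF4. Unstimulated libraries 1, 2 and 3 had 44.0, 44.0 and 38.9 normalised counts, JQ1 libraries 32.9, 38.4 and 47.6 and IL-10 libraries 23.952, 40.0 and 39.9. LPS-stimulated libraries had 4.24, 5.17 and 3.68, those pretreated with JQ1 76.2, 72.7 and 76.3 and those pretreated with IL-10 4.06, 4.56 and 6.31. The gene was thus near the floor of 3 reads after LPS with or without IL-10, and highest when JQ1 preceded LPS, with no overlap between LPS, unstimulated and LPS + JQ1 libraries.

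From the summed reads, Trib3 was 9.44-fold lower with LPS than in unstimulated cells (11 against 141 reads, 95% interval 5.12 to 19.3, counting error only) and 17.0-fold higher in LPS + JQ1 than in LPS (200 against 11 reads, 9.28 to 34.5). The DESeq2 log2 fold changes were -3.25 (SE 0.50, adjusted p 1.83e-10) and 4.09 (SE 0.49, adjusted p 5.65e-16). JQ1 alone gave -0.09 (SE 0.27, adjusted p 0.831), and the interaction, 4.17 (SE 0.56, adjusted p 1.65e-12), was the largest among the 10. LPS + JQ1 was also higher than JQ1 (0.92, SE 0.26, adjusted p 0.000915), which did not pass with total-count scaling (adjusted p 0.0532) or without replicate 1 (adjusted p 0.0752).

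Asns (chromosome 6, 7625169 to 7643254, minus strand) encodes asparagine synthetase, an ATF4 target of amino acid shortage. Its normalised counts were 157, 99.8 and 131 in unstimulated replicates 1, 2 and 3, 407, 340.2 and 333 with LPS, and 499, 482 and 357 with LPS + JQ1. The other groups without LPS ranged from 101 to 127, and LPS + IL-10 from 257 to 338. LPS raised it 2.72-fold (log2 fold change 1.45, SE 0.17, adjusted p 8.35e-17), with 0.51 (adjusted p 0.00361) under total-count scaling and 0.66 (adjusted p 0.000524) on log2(TPM + 1).

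LPS + JQ1 overlapped LPS for Asns, and the difference of 0.31 (SE 0.16, adjusted p 0.0826) did not pass with median-of-ratios factors. It passed with TMM factors (0.43, adjusted p 0.0144), with edgeR (0.42, adjusted p 0.0147) and when the compared groups were fitted alone (0.41, adjusted p 0.0199). It also passed with total-count scaling (0.69, adjusted p 3.82e-05), on log2(TPM + 1) (0.58, adjusted p 0.00251) and on log2(TPM + 0.1) (0.60, adjusted p 0.00322). The interaction of 0.57 (SE 0.24, adjusted p 0.0452) did not pass when any replicate was left out (adjusted p 0.0653 to 0.413), and was 1.127 (adjusted p 1.20e-05) with total-count scaling.

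Atf5 (chromosome 7, 52067627 to 52072028, minus strand) encodes an ATF4-related factor that governs the mitochondrial stress response. Its normalised counts were 351, 382 and 345 in unstimulated replicates 1, 2 and 3, 540.1, 499 and 428 with LPS, and 422, 380.2 and 384 with LPS + JQ1. They ranged from 351 to 433 with JQ1 or IL-10 alone and from 435 to 600.4 with LPS + IL-10. The LPS libraries lay above the unstimulated and the LPS + JQ1 libraries on this scale.

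The direction of Atf5 depended on scaling. LPS gave a log2 fold change of 0.45 (SE 0.13, adjusted p 0.000765) with median-of-ratios factors, but -0.48 (adjusted p 0.000102) with total-count scaling and -0.33 (adjusted p 0.00137) on log2(TPM + 1), and 0.38 without replicate 1 (adjusted p 0.0543). LPS + JQ1 against LPS gave -0.31 (SE 0.13, adjusted p 0.0300), but -0.19 (adjusted p 0.202) with TMM factors and 0.07 (adjusted p 0.651) with total-count scaling. It did not pass without replicate 1 (adjusted p 0.177) or without replicate 2 (adjusted p 0.228) either. The interaction of -0.44 (SE 0.18, adjusted p 0.0384) did not pass with TMM factors (-0.31, adjusted p 0.158) or when any replicate was left out (adjusted p 0.0576 to 0.281). Atf5 lies on the strand opposite to Nup62 and Il4i1 and overlaps both, its counts were not whole in 6 libraries, and Il4i1 had 49.9 ± 6.08 normalised counts in unstimulated cells, 3767 ± 455 with LPS and 1365 ± 267 with LPS + JQ1. The part of shared reads in the Atf5 values was not tested.

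Xbp1 (chromosome 11, 5420662 to 5425896, plus strand) encodes the factor that IRE1 activates by splicing. Unstimulated libraries 1, 2 and 3 had 1173, 1077 and 1036 normalised counts, JQ1 libraries 1045, 1047 and 1055 and IL-10 libraries 1231, 1223 and 1141. LPS-stimulated libraries had 2276, 2209.6 and 2021, those pretreated with JQ1 1134, 1175 and 1168 and those pretreated with IL-10 2468, 2592 and 2392. The LPS + JQ1 libraries lay within the range of cells without LPS, while LPS and LPS + IL-10 stood above every other group.

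LPS raised Xbp1 1.98-fold (log2 fold change 0.98, SE 0.07, adjusted p 2.30e-50), but the value was 0.06 (adjusted p 0.450) with total-count scaling and 0.21 (adjusted p 0.00909) on log2(TPM + 1). With JQ1 before LPS it was lower than with LPS alone (-0.90, SE 0.07, adjusted p 9.49e-42) in 3 of 3 pairs, a direction that held under all scalings tried, with -0.53 (adjusted p 8.35e-15) under total-count scaling. JQ1 alone gave -0.06 (SE 0.07, adjusted p 0.469), -0.24 (adjusted p 0.00115) with total-count scaling and -0.26 (adjusted p 0.00386) on log2(TPM + 1). The interaction was -0.84 (SE 0.09, adjusted p 9.91e-18), but -0.29 (adjusted p 0.00619) with total-count scaling and -0.33 (adjusted p 0.00717) on log2(TPM + 1).

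LPS + JQ1 against JQ1 gave 0.14 for Xbp1 (SE 0.07, adjusted p 0.0543), which passed with the replicate block (adjusted p 0.0366), with TMM factors (0.20, adjusted p 0.0108), with edgeR (0.19, adjusted p 0.0157), with the lane as a covariate (0.16, adjusted p 0.0319) and when the compared groups were fitted alone (0.20, adjusted p 0.0150), and was -0.23 (adjusted p 0.00136) with total-count scaling. IL-10 raised Xbp1 during LPS stimulation by 0.19 (SE 0.06, adjusted p 0.0156), but this did not pass when the compared groups were fitted alone (adjusted p 0.332) or without any of the 3 replicates (adjusted p 0.145 to 0.447).

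Hspa5 (chromosome 2, 34627490 to 34632051, plus strand) encodes BiP, the chaperone that holds the ER sensors inactive. Its normalised counts, given for replicates 1, 2 and 3 in turn, stood at 4922, 4120.0 and 4791 unstimulated, at 7635, 6535 and 6958 under JQ1 and at 6088, 5805 and 5862 under IL-10. LPS-stimulated libraries had 19789.7, 20445 and 21437, those pretreated with JQ1 15715, 16846 and 16418 and those pretreated with IL-10 21027, 20508 and 22839.6. Every library with LPS was above every library without it, and all JQ1 and IL-10 libraries were above the unstimulated ones.

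LPS raised Hspa5 4.45-fold (log2 fold change 2.15, SE 0.07, adjusted p 9.79e-183) and the rise held under all scalings, at 1.23 (adjusted p 8.80e-44) with total-count scaling and 1.38 (adjusted p 4.36e-09) on log2(TPM + 1). JQ1 alone raised it 1.52-fold (0.61, SE 0.07, adjusted p 5.97e-15) and IL-10 alone 1.28-fold (0.36, SE 0.07, adjusted p 0.000253), the latter without passing on log2(TPM + 1) (adjusted p 0.0831) or without replicate 2 (adjusted p 0.0622). LPS + JQ1 was lower than LPS (-0.33, SE 0.07, adjusted p 1.87e-05), also with TMM factors (-0.21, adjusted p 0.0118). However, with total-count scaling the value was 0.04 (adjusted p 0.709) and on log2(TPM + 1) it was -0.03 (adjusted p 0.831). The mean level was 700.1 ± 80.7 TPM with LPS and 685 ± 53.2 TPM with LPS + JQ1.

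The JQ1 effect on Hspa5 differed with LPS, with an interaction of -0.94 (SE 0.10, adjusted p 8.75e-18). This was -0.39 (adjusted p 0.00426) with total-count scaling and -0.44 (adjusted p 0.0262) on log2(TPM + 1). For IL-10 the interaction of -0.30 (SE 0.10, adjusted p 0.0606) did not pass without the replicate block and passed with it (adjusted p 0.0380). Without the block 0 of the 10 genes had a called interaction of LPS and IL-10 by the DESeq2 Wald test, 1 had an unadjusted p under 0.05 and edgeR called 0, where 7.44% of 10808 genes were called.

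Dnajb9 (chromosome 12, 45306884 to 45311055, minus strand) encodes ERdj4, a BiP co-chaperone that is a target of spliced XBP1. Its normalised counts, given for replicates 1, 2 and 3 in turn, stood at 187, 140.4 and 217 unstimulated, at 389, 291 and 332 under JQ1 and at 218, 232 and 216 under IL-10. LPS-stimulated libraries had 115, 88.9 and 179, those pretreated with JQ1 290.4, 303 and 304 and those pretreated with IL-10 123, 139.8 and 222. Replicate 3 was the highest in the LPS and LPS + IL-10 groups, and the LPS and unstimulated libraries overlapped. The counts of this gene were not whole in 2 libraries.

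JQ1 raised Dnajb9 without LPS (log2 fold change 0.88, SE 0.22, adjusted p 0.000317) and with LPS (1.23, SE 0.23, adjusted p 3.01e-07), in 3 of 3 pairs each. The interaction, 0.36 (SE 0.32, adjusted p 0.395), did not pass, although it passed with total-count scaling (0.91, adjusted p 0.0150). LPS lowered it by 0.53 on the log2 scale (SE 0.23, adjusted p 0.0367), and this was lost when the compared groups were fitted alone (adjusted p 0.0910), without replicate 1 (adjusted p 0.218) and without replicate 2 (adjusted p 0.120). The fall was larger with total-count scaling (-1.46, adjusted p 3.98e-09) and on log2(TPM + 1) (-1.19, adjusted p 0.000251).

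Herpud1 (chromosome 8, 96910338 to 96919277, plus strand) encodes an ER membrane protein of the degradation machinery, and its promoter held both a composite site and the second ER stress element printed above. Unstimulated libraries 1, 2 and 3 had 274, 222 and 239 normalised counts, JQ1 libraries 252, 198 and 257 and IL-10 libraries 316, 285 and 304. LPS-stimulated libraries had 638, 572 and 586, those pretreated with JQ1 1109, 1022 and 1099 and those pretreated with IL-10 754, 895 and 712. The 3 groups with LPS did not overlap one another and stood in the order LPS, LPS + IL-10 and LPS + JQ1. The gene overlaps the annotated Gm15890 on the opposite strand.

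LPS raised Herpud1 2.42-fold (log2 fold change 1.28, SE 0.12, adjusted p 1.21e-27), and JQ1 before LPS raised it a further 1.80-fold (0.85, SE 0.11, adjusted p 8.75e-15). With total-count scaling LPS gave 0.35 (adjusted p 0.00654) and LPS + JQ1 against LPS 1.22 (adjusted p 3.88e-26), and on log2(TPM + 1) they gave 0.49 (adjusted p 0.000976) and 1.12 (adjusted p 3.10e-07), so which step was the larger depended on the scaling. The mean level was 20.01 ± 2.65 TPM in unstimulated cells, 28.5 ± 1.68 TPM with LPS and 63.1 ± 1.11 TPM with LPS + JQ1. JQ1 without LPS gave -0.06 (SE 0.12, adjusted p 0.708), and the interaction was 0.91 (SE 0.16, adjusted p 1.20e-07), or 1.47 (adjusted p 1.50e-16) with total-count scaling. IL-10 during LPS gave 0.39 (SE 0.11, adjusted p 0.00282), which did not pass without replicate 2 (adjusted p 0.242). LPS + JQ1 exceeded LPS + IL-10 by 0.46 (SE 0.10, adjusted p 4.01e-05).

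Across the 10 genes, the interaction of LPS and JQ1 was called for 9, 6 positive and 3 negative, where 41.5% of 12727 genes were called (17.7% positive and 23.8% negative). The 6 positive values were those of Atf4, Ddit3, Chac1, Trib3, Asns and Herpud1, and the 3 negative ones those of Atf5, Xbp1 and Hspa5. The value for Atf5 turned to 0.12 with total-count scaling, under which 5964 genes had a positive and 1023 a negative called interaction. LPS + JQ1 was higher than JQ1 alone for 6 genes (Atf4, Chac1, Trib3, Asns, Hspa5 and Herpud1) and lower for none, where 58.6% of 13686 genes were called (27.6% higher and 31% lower). Ddit3, Atf5, Xbp1 and Dnajb9 did not pass in that comparison. With total-count scaling 5 were higher and 4 lower, where 2274 genes were called higher and 6599 lower.

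**Figure D3:**
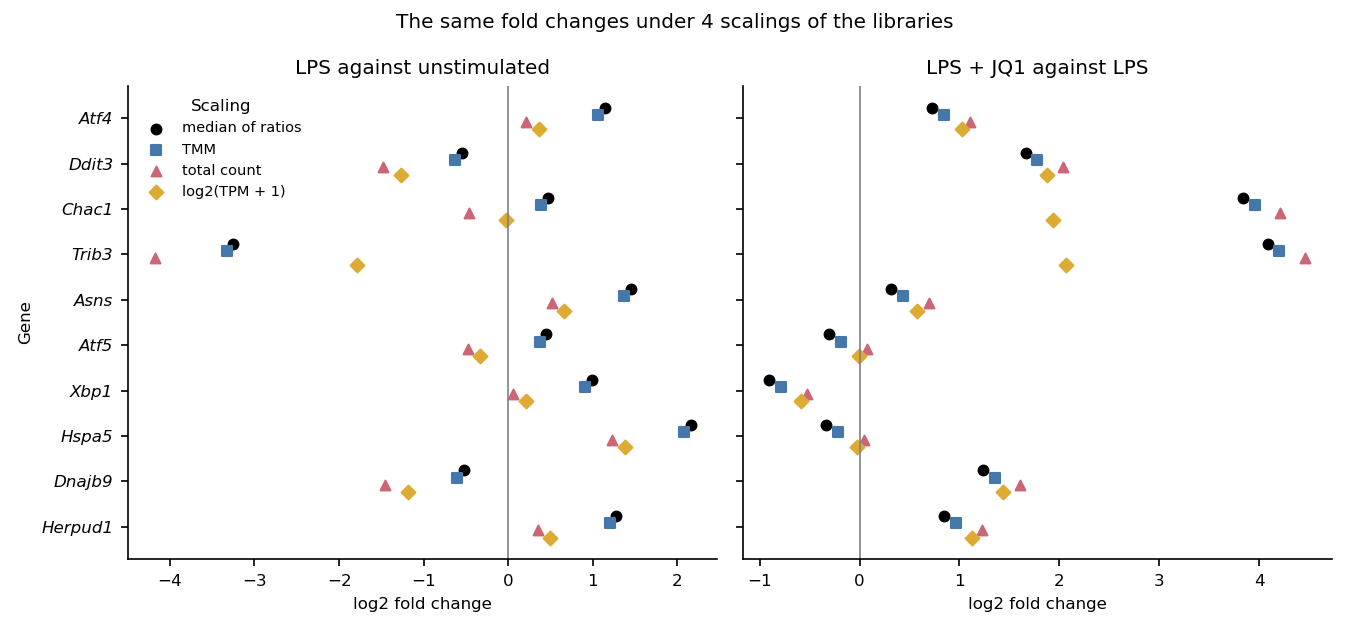
Log2 fold changes of the 10 genes for LPS against unstimulated cells (left) and for LPS + JQ1 against LPS (right) under 4 scalings of the libraries, named in the key. Values on log2(TPM + 1) understate low genes such as Chac1 and Trib3. Atf5 changes sign in both panels, Chac1 in the left one (0.47 to -0.46) and Hspa5 in the right one (-0.33 to 0.04).

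The pathway genes outside the 10 came from 7 lists of 111 genes in all, of which 109 had an adjusted p in both of the following comparisons. LPS changed 77 (52 higher and 25 lower), where 64.5% of all genes tested were called, and 61 differed between LPS + JQ1 and LPS (36 higher and 25 lower), where 57.3% were called. JQ1 without LPS changed 52 of 108 tested, where 45.7% were called. On log2(TPM + 1), 2310 of all genes were higher and 7641 lower with LPS. On the same scale 4932 were higher and 2935 lower in LPS + JQ1 than in LPS. The list counts on log2(TPM + 1) below are to be read against these. The lists were written with earlier results of these data known. Values named in the following paragraphs are means of normalised counts ± SD (n = 3) or DESeq2 log2 fold changes.

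Among 12 genes for eIF2alpha, its kinases and phosphatase subunits and the exchange factor eIF2B, LPS raised 7 and lowered 4, and LPS + JQ1 was higher than LPS for 5 and lower for 4. Ppp1r15a, which encodes the stress-induced phosphatase subunit GADD34 that reverses eIF2alpha phosphorylation, had 288 ± 57.4 counts in unstimulated cells, 5043 ± 698 with LPS, 644 ± 52.0 when JQ1 preceded LPS and 2458 ± 710 when IL-10 did. Its log2 fold change was 4.15 for LPS (adjusted p 6.51e-132) and -2.97 for LPS + JQ1 against LPS (adjusted p 1.19e-70). Eif2ak2, the kinase PKR that double-stranded RNA activates, rose by 4.10 with LPS (adjusted p 2.39e-182). Eif2ak4, the amino acid sensor GCN2, had 424 ± 33.3 counts in unstimulated cells, 89.0 ± 11 with LPS and 229 ± 4.86 with LPS + JQ1, the last a rise of 1.35 over LPS (adjusted p 2.04e-21). On log2(TPM + 1), the list had 4 higher and 7 lower genes for LPS and 8 and 3 for LPS + JQ1 against LPS.

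Of the 11 other stress transcription factors, LPS raised 6 and lowered 4 (2 and 6 with total-count scaling). Nupr1, a small chromatin protein of the stress response, had 36.3 ± 13.6 counts in unstimulated cells, 1972 ± 326 with LPS and 679 ± 69.6 with LPS + JQ1. JQ1 without LPS gave -1.06 for Nupr1 (adjusted p 0.00110), and its interaction of LPS and JQ1 was -0.48 (adjusted p 0.283). Cebpg, a binding partner of ATF4, fell with LPS by 2.02 on the log2 scale (adjusted p 3.93e-75). Creb3l2, an ER membrane-bound factor, was 0.83 higher in LPS + JQ1 than in LPS (adjusted p 2.40e-06). For Creb3l2, JQ1 without LPS gave 0.47 (adjusted p 0.000771). The interaction was 0.37 (adjusted p 0.154), or 0.92 (adjusted p 2.91e-05) with total-count scaling. In this list LPS + JQ1 was higher than LPS for 5 genes and lower for 2 (8 and 1 on log2(TPM + 1)).

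Of 29 genes of amino acid supply, transport and stress that ATF4 is known to induce, LPS raised 11 and lowered 7 (7 and 10 on log2(TPM + 1)), and LPS + JQ1 was higher than LPS for 11 and lower for 3. Slc7a11, the cystine transporter, had 88.7 ± 50.8 counts in unstimulated cells, 4124 ± 326 with LPS and 259 ± 61.5 with LPS + JQ1, a fall of 3.99 on the log2 scale between the last 2 (adjusted p 7.08e-30), opposite to Chac1, Trib3 and Ddit3. JQ1 without LPS gave -3.35 for Slc7a11 (adjusted p 5.41e-13). Its interaction of LPS and JQ1 was -0.64 (adjusted p 0.379), but -2.28 (adjusted p 1.88e-06) on log2(TPM + 1). Sesn2, a leucine sensor that restrains mTORC1, had 198 ± 31.1 counts in unstimulated cells, 58.0 ± 11.1 with LPS and 409 ± 3.19 with LPS + JQ1. It was 2.82 higher in LPS + JQ1 than in LPS (adjusted p 5.62e-62). Mthfd2, the mitochondrial folate enzyme, rose by 2.30 with LPS (adjusted p 1.35e-88), and by 1.37 with total-count scaling.

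The UPR sensors and proteases held 6 genes, of which LPS raised 1 and lowered 4, and all 6 differed between LPS + JQ1 and LPS (4 higher and 2 lower, but 4 and 0 with total-count scaling). Eif2ak3, which encodes PERK, fell by 2.57 on the log2 scale with LPS (adjusted p 3.12e-81) and was 1.33 higher with JQ1 before LPS (adjusted p 5.65e-20). Ern1, which encodes IRE1, had 641 ± 42.3 counts in unstimulated cells, 1433 ± 172 with JQ1, 231 ± 31.6 with LPS and 837 ± 26.2 with LPS + JQ1, and was 1.87 higher in LPS + JQ1 than in LPS (adjusted p 2.37e-60). Xbp1, whose RNA IRE1 splices, was lower in LPS + JQ1 than in LPS. Traf2, the adaptor through which IRE1 signals to JNK, rose by 2.68 with LPS (adjusted p 5.84e-207), and by 1.75 with total-count scaling.

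The counts of the 3 ER lists depended on scaling, as did those of all genes. Over all genes, 4728 were higher and 4928 lower with LPS by median-of-ratios factors. The numbers were 2310 and 7641 on log2(TPM + 1) and 2223 and 8858 with total-count scaling. For LPS, 6 of 22 chaperones and folding enzymes were higher and 7 lower with median-of-ratios factors, against 1 and 17 on log2(TPM + 1) and 0 and 19 with total-count scaling. For ER translocation and signal peptide processing (17 genes) the numbers were 11 and 0 against 2 and 11, and for ER-associated degradation (16 genes) 10 and 1 against 2 and 10. Sel1l (1.32, adjusted p 7.72e-78) and Syvn1 (1.22, adjusted p 4.63e-35), partners in the ubiquitin ligase of ER-associated degradation, rose with LPS under all 4 scalings. Ssr3 (1.62, adjusted p 1.14e-21), of the translocon, and Srpr (1.34, adjusted p 2.10e-135), of the signal recognition particle receptor, did so too. With total-count scaling Sel1l gave 0.39, Syvn1 0.29, Ssr3 0.70 and Srpr 0.41. Manf, a secreted ER stress factor, gave 1.06 (adjusted p 5.97e-31) but 0.14 (adjusted p 0.217) with total-count scaling. Pdia6, a disulfide isomerase, gave 0.76 (adjusted p 1.86e-28) but -0.17 (adjusted p 0.0388) with total-count scaling.

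For LPS + JQ1 against LPS, the chaperone list had 8 higher and 6 lower genes, against 13 and 1 on log2(TPM + 1). The translocation list had 1 and 7, against 8 and 1, and the degradation list 4 and 1, against 10 and 1. Over all genes, 3491 were higher and 4718 lower, against 4932 and 2935 on log2(TPM + 1). Pdia4, a disulfide isomerase, was 1.18 higher with JQ1 (adjusted p 3.36e-67), Ero1lb, an ER oxidase, 0.87 higher (adjusted p 1.18e-13) and Os9, a lectin that hands misfolded glycoproteins to degradation, 0.60 higher (adjusted p 1.78e-09). Edem1, another lectin of that step and a known target of XBP1, had 3054 ± 105 counts in unstimulated cells, 5944 ± 422 with LPS and 3236 ± 149 with LPS + JQ1, a difference of -0.88 between the last 2 (adjusted p 1.82e-35). Sec11c of the signal peptidase was also lower (-0.65, adjusted p 2.20e-09). Pdia4, Ero1lb, Os9, Edem1 and Sec11c passed with the same sign under all 4 scalings, with 0.98 for Os9, -0.50 for Edem1 and -0.27 for Sec11c under total-count scaling. Ssr3 gave -0.63 (adjusted p 0.000340), but -0.26 (adjusted p 0.201) with total-count scaling. For LPS against unstimulated cells, Edem1 gave 0.96 (adjusted p 1.07e-42). It gave 0.03 (adjusted p 0.725) with total-count scaling and 0.18 (adjusted p 0.112) on log2(TPM + 1). JQ1 without LPS gave 0.85 for Pdia4, 0.61 for Ero1lb and 0.67 for Os9, all past the threshold. The interaction with JQ1 was 0.33 for Pdia4 (adjusted p 0.00121), 0.27 for Ero1lb (adjusted p 0.161) and -0.07 for Os9 (adjusted p 0.723). With total-count scaling these were 0.88, 0.82 and 0.48.

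The interaction of LPS and JQ1 was called for 46 of the 111 genes, 19 positive and 27 negative, with 106 tested and 41.5% called over all genes. It was positive for 8 and negative for 2 of the ATF4 targets, and for 13 and 0 with total-count scaling. Over all genes the interaction was positive for 2250 and negative for 3029, and for 5964 and 1023 with total-count scaling. In the ER lists the sign turned with the scaling too. The chaperones had 3 positive and 6 negative values against 15 and 0 with total-count scaling, the translocation genes 0 and 7 against 7 and 0, and the degradation genes 0 and 6 against 11 and 1. IL-10 changed 5 of the 111 genes without LPS (4 higher and 1 lower, with 106 tested and 2.81% of all genes called), the 4 higher ones being chaperones. With LPS it changed 25 (17 higher and 8 lower, with 101 tested and 17.2% of all genes called), among them 9 chaperones, all higher.

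Without LPS, JQ1 changed 2 genes of the eIF2alpha list (2 higher), 8 of the other stress factors (5 higher), 14 of the ATF4 targets (9 higher), 3 sensors (3 higher), 11 chaperones (9 higher), 7 translocation genes (6 higher) and 8 degradation genes (8 higher). On log2(TPM + 1) the higher and lower numbers were 0 and 1, 0 and 5, 7 and 7, 2 and 0, 4 and 3, 1 and 3, and 2 and 2. Over all genes 1445 were higher and 4421 lower on that scale, against 3001 and 3247 with median-of-ratios factors.

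**Figure D4:**
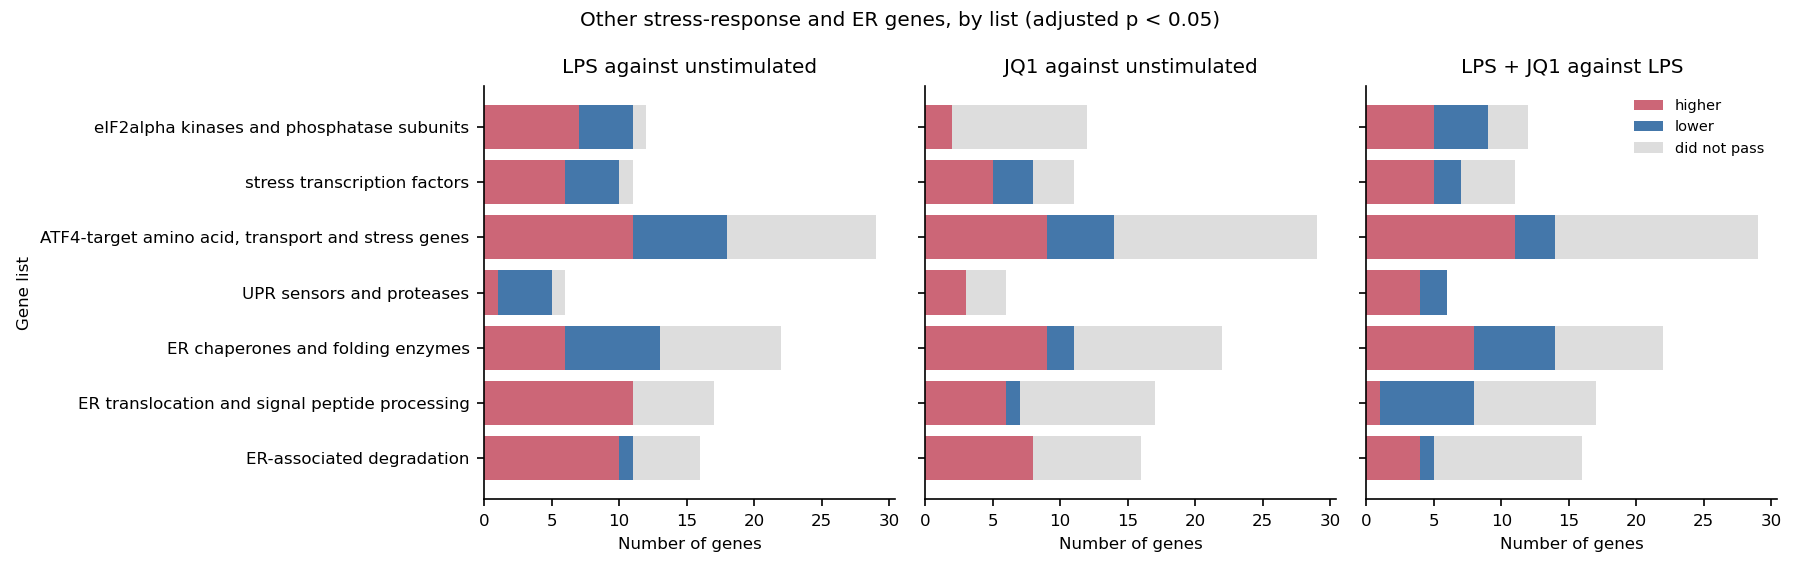
Numbers of genes higher, lower or not past an adjusted p of 0.05 in the 7 lists of other stress response and ER genes, for 3 comparisons with median-of-ratios factors. The ATF4-target list has 11 higher and 3 lower genes for LPS + JQ1 against LPS, and the translocation list 1 and 7.

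The genes whose pattern over the 6 groups was most like that of a member were sought among 8352 genes by the root-mean-square difference over 5 log2 ratios to the unstimulated mean. Fam220a (0.0716), Btd (0.0913) and Angel1 (0.0974) were closest to Ddit3, and P4ha1 (0.154), Stk38l (0.168) and Coq10b (0.192) to Hspa5. Fam220a had log2 ratios of 0.93 with JQ1, -0.55 with LPS and 1.08 with LPS + JQ1, against 1.07, -0.55 and 1.12 for Ddit3. P4ha1, a collagen prolyl hydroxylase, had 0.36, 2.20 and 1.70, against 0.61, 2.16 and 1.82 for Hspa5. This is a description over 18 libraries with no test.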

How the data were processed

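RNA from 18 cultures of Il10-/- BMDMs, 6 groups of 3, was sequenced from ribosome-depleted stranded libraries (paired reads, HiSeq 4000). The authors aligned reads to mm9 with STAR and ran RSEM 1.2.31 with default settings, which do not use strand, and deposited expected counts per gene. The deposited TPM values were made by the authors in the same run and are scaled for length and to a fixed total. No column of the authors' comparisons was used.

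Expected counts were rounded and fitted in DESeq2 1.42.0 (R 4.3.3), all 18 libraries, group as the only term, Wald tests, Benjamini-Hochberg adjusted p under 0.05 over all genes. Normalised counts are expected counts divided by median-of-ratios factors. The 12 alternatives used edgeR 4.0.16, limma 3.58.1 on log2(TPM + 1) and log2(TPM + 0.1), TMM factors, total-count scaling, a filter of 10 counts in 3 libraries, the lane, only the groups compared, a replicate block, and leaving out each replicate number. The steps were tested on simulated data. Intervals at 95% and the floor of 3 counts cover counting error only.

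The members and lists were chosen with earlier results of these data known. From each list the genes named are, among those that passed and averaged 100 or more normalised counts, up to 2 with the largest change for LPS and up to 2 for LPS + JQ1 against LPS. Replicate numbers come from the sample titles and were taken to name the mouse, which would pair the samples. The main fit left this pairing out. Deviations of same-numbered libraries correlated at 0.119, 0.110 and 0.150 for LPS against unstimulated cells and at 0.0701, -0.0670 and -0.124 for LPS + JQ1 against LPS. They correlated at 0.288, 0.179 and 0.0778 for IL-10 against unstimulated cells and at 0.205, 0.282 and 0.469 for LPS + IL-10 against LPS. In these 2 comparisons 447 and 2116 genes were called with the replicate block, against 358 and 1968 without it. Lane 7 held replicate 1 and lane 8 replicate 3, while replicate 2 was split, lane 7 without LPS and lane 8 with it. Positions are from the mm9 annotation of GENCODE.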

Additional observations from a re-analysis of the deposited data

Results flagged for a closer look

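For 9 of the 10 genes the JQ1 effect differed with and without LPS, by the interaction term of the DESeq2 fit, where 41.5% of 12727 genes were called. The log2 values were 0.52 for Atf4, 0.60 for Ddit3, 3.61 for Chac1, 4.17 for Trib3, 0.57 for Asns, -0.44 for Atf5, -0.84 for Xbp1, -0.94 for Hspa5 and 0.91 for Herpud1. The same direction was seen in 3 of 3 replicate numbers for each of these genes. The values for Ddit3, Asns and Atf5 did not pass when some of the replicates were left out, and that for Atf5 turned with the scaling. For Chac1 there was no adjusted p without replicate 2. With total-count scaling the values of Atf4 (1.07), Ddit3 (1.16), Asns (1.127) and Herpud1 (1.47) were over 1.5 times larger, and those of Xbp1 (-0.29) and Hspa5 (-0.39) over 1.5 times smaller in size, each still past the threshold. Over all genes, total-count scaling gave 5964 positive and 1023 negative called interactions. On log2(TPM + 1) Chac1 gave 1.91 and Trib3 2.29.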

How the results depend on the processing

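Among the values of the 10 genes recomputed under 12 alternatives, 973 kept their direction and side of the threshold, 42 no longer passed, 20 passed only under the alternative and 44 turned in direction. The replicate block changed 2 calls, Xbp1 for LPS + JQ1 against JQ1 (0.14, adjusted p 0.0366) and Hspa5 for the interaction of LPS and IL-10, which gave 1 gene of the 10, and no other. For IL-10 against unstimulated cells, genes called numbered 230 with edgeR, 117 on log2(TPM + 0.1) and 171 on log2(TPM + 1), and the last 2 called 0 of the 10 genes. For LPS + IL-10 against LPS, a fit of only these groups called 1 of the 10 and 1089 genes in all. The interaction of LPS and IL-10 was called for 529 genes on log2(TPM + 0.1).

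Directions turned in the order log2(TPM + 0.1), log2(TPM + 1) and total-count scaling as follows. For LPS, Chac1 gave -0.16, -0.032 and -0.46 and Atf5 -0.34, -0.33 and -0.48. For JQ1, Atf5 gave -0.084, -0.081 and -0.048, and Atf4 -0.0091 on both TPM scales. For LPS + IL-10 against LPS, Atf4 gave 0.060, 0.059 and 0.044. For LPS + JQ1 against JQ1, Ddit3 gave -0.23, -0.22 and -0.32, Atf5 -0.26, -0.25 and -0.36 and Xbp1 -0.13, -0.12 and -0.23. For the interaction with JQ1, Atf5 gave 0.081, 0.079 and 0.12, and for that with IL-10 Ddit3 gave 0.032, 0.024 and 0.088. With total-count scaling alone, Atf5 (0.071) and Hspa5 (0.043) turned for LPS + JQ1 against LPS, and Asns (0.037) for the interaction with IL-10. The cause was not tested.

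Leaving out each replicate number in turn removed 6 libraries. It gave 4050 to 4778 genes for JQ1, 130 to 196 (and 0 to 1 of the 10) for IL-10, 874 to 1250 (and 0 to 1) for LPS + IL-10 against LPS, 3471 to 3929 for the interaction with JQ1 and 291 to 471 for that with IL-10. Directions turned within -0.30 to 0.075 for Trib3 with JQ1, -0.46 to 0.37 for Chac1 and -0.35 to 0.011 for Asns with IL-10, -0.15 to 0.44 for Trib3 with LPS + IL-10 against LPS, and -0.089 to 0.12 for Atf5 with LPS + JQ1 against JQ1. For the interaction with IL-10 they turned within -0.029 to 0.084 for Atf4, -0.17 to 0.14 for Ddit3, -0.33 to 0.080 for Asns, -0.045 to 0.14 for Dnajb9 and -0.017 to 0.19 for Herpud1. Depth limits Chac1, which had few reads outside LPS + JQ1, and Trib3, which had few reads in LPS and LPS + IL-10 only.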
